A study of Mus musculus with 2 samples.

Results

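Disease-associated microglia genes are a set of transcripts first described in microglia around amyloid plaques and in other neurodegeneration models. Of that set, 10 genes besides Apoe were followed here by name: Lpl, Spp1, Cst7, Clec7a, Itgax, Igf1, Gpnmb, Cd9, Cd63 and Fabp5. They were listed by name, with no measured value in the rule, and 9 of the 10 were analysed among 31053 genes. Clec7a was not analysed here. The cells were hypothalamic microglia of young wild-type mice, taken by fluorescence sorting 20 hours after the animals received plasma protein coupled to a dye. Both groups carried the same genotype and the same injection. The plasma-negative group was the microglia without the dye, and the plasma-positive group was the microglia that had taken it up. Each group pooled several mice, according to the labels, and was run as 1 droplet library, so every difference below is between 2 libraries and has no replicate check.

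Microglia in the disease-associated state lower part of their homeostatic programme and turn on genes for lipid handling, lysosomal work and phagocytosis. Entry into the state in disease models depends in part on the receptor Trem2, which senses lipids and lipoproteins, and Apoe is among its most strongly induced genes. Lpl, Spp1, Itgax and Igf1 also mark microglia of the developing white matter, so the genes are not specific to disease.

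The filters kept 9860 plasma-negative cells with 34534518 unique molecular identifiers (UMIs, each standing for 1 captured RNA molecule) and 10362 plasma-positive cells with 41984977 UMIs. The median cell held 3270.5 and 3753 UMIs, and the median mitochondrial share was 1.08% and 1.27%. Levels are given as counts per 1000000 UMIs of the library (CPM). The chemistry counts transcript ends, so levels are per molecule and need no length correction. The microglia label fitted the markers: 9827 plasma-negative cells (99.7%) and 10333 plasma-positive cells (99.7%) held at least 4 of 11 microglia markers, whose summed level was 30762 and 29424 CPM. All intervals are 95% and cover counting error only. UMIs of the same cell are not independent, so intervals are too narrow for genes whose counts sit in few cells. No cell type that should lack these genes was at hand, so the share of cells that free RNA alone would give could not be measured.

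The members fell into 3 levels of abundance. Cd9 and Cd63 were detected in most cells, Lpl in about 7 of 100, and the other 6 in fewer than 3 of 100. Between the libraries, the scarce members Spp1, Fabp5, Igf1, Itgax and Cst7 had 1.78 to 2.81 times the level in plasma-positive microglia, while Lpl and Cd9 were slightly lower there and Cd63 slightly higher. Within each library, most members were at a higher level in cells that also held Apoe transcripts. Apoe itself stood at 171 CPM in the plasma-negative and 1190 CPM in the plasma-positive library.

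**Figure D1:**
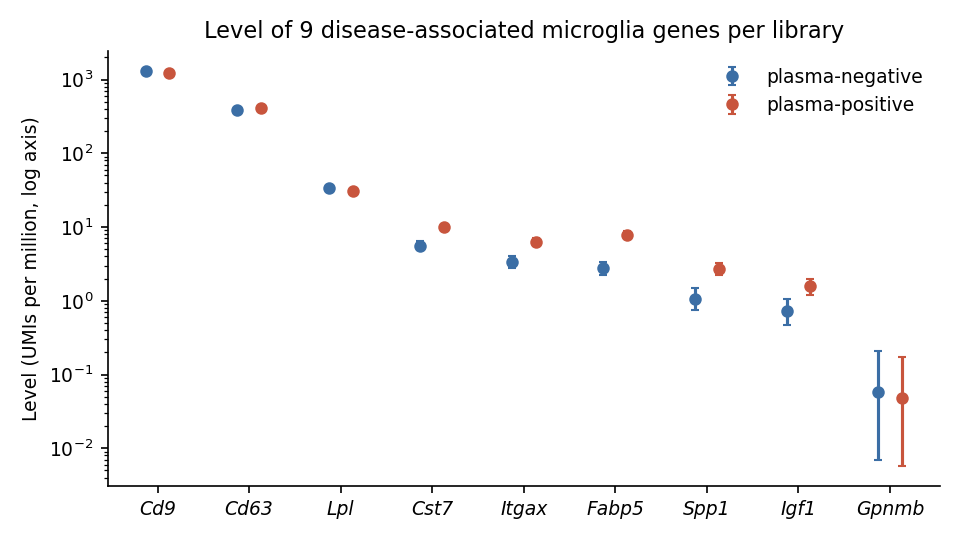
Level of each analysed member in CPM (log axis), with the plasma-negative library in blue and the plasma-positive library in red. Bars are exact 95% Poisson intervals on the summed UMIs of 1 library each. Levels run from above 1000 CPM for Cd9 to under 0.1 CPM for Gpnmb; Cst7, Itgax, Fabp5, Spp1, Igf1 and Cd63 are higher in the plasma-positive library and Cd9 and Lpl lower.

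Among the secreted products, Lpl was the most abundant. It encodes lipoprotein lipase, which releases fatty acids from circulating and local lipoproteins (ENSMUSG00000015568; GRCm38, chromosome 8, 68880491 to 68907448, plus strand). Lpl stood at 34.1 CPM (interval 32.2 to 36.1) in the plasma-negative library and at 31.1 CPM (29.4 to 32.8) in the plasma-positive library. The plasma-positive level over the plasma-negative level, the ratio used throughout, was 0.911 (0.842 to 0.987). It lay below 1 in each of 4 depth bins, between 0.769 and 0.899, with an interval that excluded 1 only in the deepest. Over 4 bins of mitochondrial share the direction turned. From the lowest share to the highest, the ratio was 0.590 (0.487 to 0.713), 0.666 (0.561 to 0.791), 0.992 (0.838 to 1.18) and 1.21 (1.04 to 1.41). The gene was clumped: 1 plasma-negative cell of 20680 UMIs held 81 Lpl UMIs, which was 6.88% of that library's Lpl, and that cell carried all 11 microglia markers and 2 oligodendrocyte markers. Without the cell richest in Lpl of each library, a choice made after its value was seen, the ratio was 0.948.

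Spp1 encodes osteopontin, a secreted ligand of integrins and Cd44 (ENSMUSG00000029304; GRCm38, chromosome 5, 104435118 to 104441050, plus strand). It had 37 UMIs in 26 plasma-negative cells, or 1.07 CPM (0.754 to 1.48). The plasma-positive library held 114 UMIs in 52 cells, or 2.72 CPM (2.24 to 3.26). The intervals did not overlap, and the ratio was 2.53 (1.74 to 3.78). The share of cells with a UMI was 0.264% (0.172% to 0.386%) and 0.502% (0.375% to 0.658%), with overlapping intervals, and cells with the transcript held 1.42 and 2.19 UMIs on average. Thinned to 1000 UMIs, 8 and 15 cells held Spp1, a share ratio of 1.74 (0.693 to 4.74) that included 1. By mitochondrial share, the level ratio was 4.05 (2.15 to 8.42) in the highest of 4 bins and lay between 0.764 and 1.56 in the other 3, each with an interval that included 1. A single plasma-positive cell held 16 of the 114 UMIs, and without the richest cell of each library the ratio was 2.60.

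Igf1, the gene for insulin-like growth factor 1, was rarer still (ENSMUSG00000020053; GRCm38, chromosome 10, 87858265 to 87937042, plus strand). It had 25 UMIs in 25 plasma-negative cells, 0.724 CPM (0.468 to 1.07), and 66 UMIs in 44 plasma-positive cells, 1.57 CPM (1.22 to 2.0). The ratio was 2.17 (1.35 to 3.59). It lay above 1 in each of 4 depth bins, between 1.35 and 2.14, with an interval that excluded 1 only in the deepest bin. When each cell was thinned at random to 1000 UMIs, 9 cells of each library held Igf1. The log2 ratio of levels was then -0.11 against 1.12 over all UMIs. The thinned share ratio was 0.929 (0.327 to 2.64), an interval that took in both 1 and 2.17. Thinned counts therefore did not settle the direction of the Igf1 difference.

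Cst7 and Fabp5 act inside the cell. Cst7 encodes cystatin F, an inhibitor of lysosomal cysteine proteases (ENSMUSG00000068129; GRCm38, chromosome 2, 150570415 to 150578944, plus strand). Its plasma-negative level was 5.59 CPM (4.83 to 6.44) and its plasma-positive level 9.96 CPM (9.02 to 10.96), a ratio of 1.78 (1.499 to 2.12). Cells with a UMI made up 1.53% and 2.98%, and 0.419% and 0.676% once thinned to 1000 UMIs. The thinned share ratio was 1.61 (1.07 to 2.47), so the order held at equal depth, although the thinned log2 ratio of levels, 0.54, was under 1.5-fold.

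Fabp5, an intracellular carrier of fatty acids, had the largest ratio of the 9 members (ENSMUSG00000027533; GRCm38, chromosome 3, 10012548 to 10016607, plus strand). It stood at 2.78 CPM (2.25 to 3.39) and 7.81 CPM (6.99 to 8.71), a ratio of 2.81 (2.23 to 3.57). The plasma-positive library had 198 cells with a UMI (1.91%) against 82 (0.832%). Cells with 3 or more Fabp5 UMIs numbered 21 in the plasma-positive and 1 in the plasma-negative library. At 1000 UMIs per cell the shares were 0.656% and 0.265%, a ratio of 2.48 (1.53 to 4.14), and the level ratio lay above 2 in each of 4 depth bins, with a lowest value of 2.06. By mitochondrial share, the level ratio was 5.76 (3.39 to 10.5) in the highest of 4 bins. It lay between 1.76 and 2.19 in the other bins, each with an interval above 1.

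Of the surface receptors, Itgax encodes CD11c, the alpha chain of an integrin that binds complement fragments (ENSMUSG00000030789; GRCm38, chromosome 7, 128129547 to 128150657, plus strand). It measured 3.33 CPM (2.75 to 3.997) in plasma-negative and 6.29 CPM (5.55 to 7.09) in plasma-positive microglia, a ratio of 1.89 (1.51 to 2.37). Cells with a UMI were 1.10% and 2.22%. Thinned to 1000 UMIs, the shares of 0.375% and 0.441% had overlapping intervals and the log2 ratio of levels was 0.27, so at that depth the Itgax difference was within counting error. Gpnmb, a transmembrane glycoprotein of lysosome-rich phagocytes, was close to undetected (ENSMUSG00000029816; GRCm38, chromosome 6, 49036546 to 49070929, plus strand). It gave 2 UMIs in 1 plasma-negative cell and 2 UMIs in 2 plasma-positive cells, too few for any comparison. The plasma-negative cell carried 5 of the 11 microglia markers, at a summed 2053 CPM against 30767 CPM in cells without Gpnmb. Its border macrophage markers summed to 316 CPM against 4.37 CPM, so the microglia label was uncertain for that cell. It also held Lpl, Cst7 and Igf1.

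Cd9 and Cd63 are tetraspanins, membrane proteins that organise surface microdomains; Cd63 sits mainly in late endosomes and lysosomes. Cd9 (ENSMUSG00000030342; GRCm38, chromosome 6, 125460266 to 125494791, minus strand) stood at 1313 CPM (1301 to 1325) and 1216 CPM (1206 to 1227), a ratio of 0.926 (0.915 to 0.938) that lay below 1 in all 4 depth bins and all 4 mitochondrial bins. Cd63 (ENSMUSG00000025351; GRCm38, chromosome 10, 128900989 to 128912822, plus strand) stood at 381 CPM (374 to 387) and 415 CPM (409 to 421), a ratio of 1.09 (1.07 to 1.12). The 2 tetraspanins thus differed in opposite directions, by less than 1.1-fold each, and 89.0% and 90.6% of cells held Cd9 against 57.5% and 63.3% for Cd63. Cells with 10 or more Cd63 UMIs were 0.477% of the plasma-negative and 1.45% of the plasma-positive library.

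**Figure D2:**
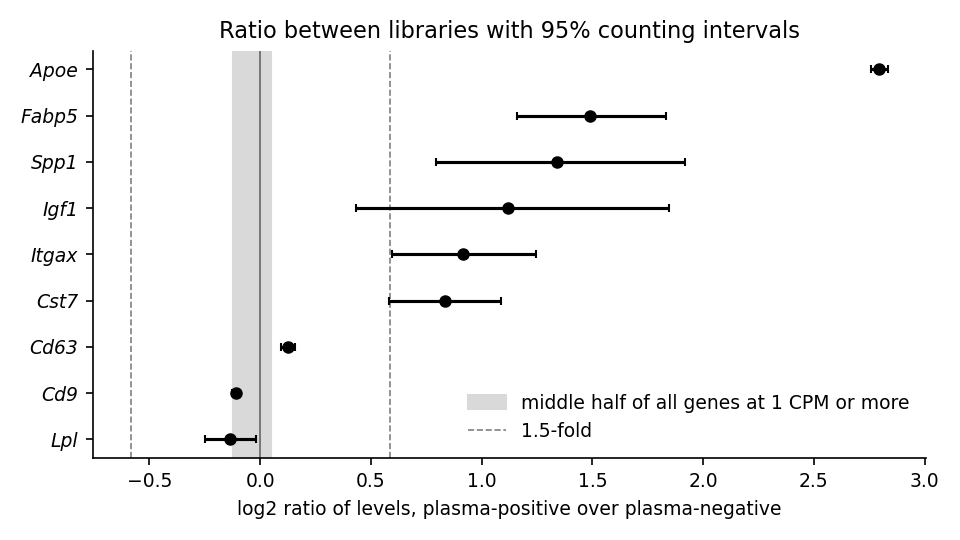
log2 ratio of levels, plasma-positive over plasma-negative, for Apoe and the 8 members at 1 CPM or more in at least 1 library, with exact conditional 95% intervals. The grey band spans the quartiles of all genes at that minimum and dashed lines mark 1.5-fold; Spp1, Fabp5, Igf1, Itgax and Cst7 lie to the right of the upper line, with the intervals of Igf1 and, barely, Cst7 reaching below it, and Lpl, Cd9 and Cd63 lie between the lines.

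Read against all genes, the result depended on the abundance considered. At a minimum of 10 CPM in at least 1 library, 0 of the 3 members that qualified (Lpl, Cd9 and Cd63) were 1.5-fold or more higher in plasma-positive microglia, beside 0.323% of 8355 genes, and 0 were as much lower, beside 0.0239%. The median log2 ratio of these 3 was -0.11, against -0.04 over all 8355 genes. At a minimum of 1 CPM, 5 of 8 members were 1.5-fold or more higher, beside 2.07% of 11645 genes, and 0 were lower, beside 0.936%. All 5 lay between 1 and 10 CPM in their higher library, a band in which 6.5% of 3290 genes were 1.5-fold or more higher and 3.25% were as much lower. That band was chosen after the values were seen. Igf1 reached 1 CPM through the plasma-positive library alone, and a gene that passes a minimum only where it is high has to differ, so these counts describe the members and do not support a difference.

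The sequences just upstream of Spp1, Cst7 and Itgax are shown because these members were more than 1.5-fold apart between the libraries and their RefSeq starts lay within 7 bases of the GENCODE gene starts. Of the 9 analysed members, 7 had an entry in the RefSeq table (GRCm38.p6), and Lpl and Fabp5 did not. The 3 windows are the 250 bases before the annotated start, plus strand, at chr5:104434861-104435110 for Spp1, chr2:150570165-150570414 for Cst7 and chr7:128129300-128129549 for Itgax. Capitals mark matches on either strand to 4 motifs, selected after the data were seen: CACGTG (bound by the Mitf and Tfe family), CATGTG (a Mitf variant), TGANTCA (bound by AP-1) and GAGGAA (the core bound by PU.1).
Spp1: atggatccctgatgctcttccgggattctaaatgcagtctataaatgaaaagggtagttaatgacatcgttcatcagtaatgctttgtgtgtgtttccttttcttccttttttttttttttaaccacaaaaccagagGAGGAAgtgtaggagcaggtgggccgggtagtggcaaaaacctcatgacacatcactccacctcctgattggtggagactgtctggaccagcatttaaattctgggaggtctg
Cst7: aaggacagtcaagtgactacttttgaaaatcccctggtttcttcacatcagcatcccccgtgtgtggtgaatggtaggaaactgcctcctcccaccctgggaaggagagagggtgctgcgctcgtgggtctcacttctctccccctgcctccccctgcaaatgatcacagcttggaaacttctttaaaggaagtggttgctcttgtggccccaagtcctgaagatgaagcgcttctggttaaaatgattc
Itgax: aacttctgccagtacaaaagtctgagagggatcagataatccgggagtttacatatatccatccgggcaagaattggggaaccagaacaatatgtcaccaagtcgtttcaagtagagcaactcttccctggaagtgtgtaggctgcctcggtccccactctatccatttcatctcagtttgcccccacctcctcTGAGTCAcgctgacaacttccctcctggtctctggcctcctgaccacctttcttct
The Spp1 window held 1 GAGGAA, the Itgax window 1 TGANTCA, and the Cst7 window none of the 4. Over the 7 members' windows, CACGTG was in 0, CATGTG in 1, TGANTCA in 2 and GAGGAA in 3. Among 27025 promoter windows of the same length, the shares were 6.05%, 12.2%, 6.87% and 23.1%. A match here is a run of letters and not a measured binding site.

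Co-expression with Apoe was read in cells thinned to 1000 UMIs, which left out 796 and 603 shallower cells, and Apoe was removed from the totals. Cells with 3 or more Apoe UMIs numbered 146 of 9064 in the plasma-negative and 634 of 9759 in the plasma-positive library. The class is a range and not a cell type: 118 and 237 cells held exactly 2 Apoe UMIs, and 45 and 112 held exactly 3. In plasma-positive microglia, 8 of the 8 members with a UMI in either class were at a higher level in cells with 3 or more Apoe UMIs than in cells with 0, by any amount, beside 28.8% of 14976 genes. In plasma-negative microglia 7 of 8 were, beside 29.8% of 14720 genes. These counts take in Cd9 in the plasma-positive library and Cst7, Itgax and Igf1 in the plasma-negative library, whose intervals included 1. The shares over all genes take in genes with as few as 1 UMI, far scarcer than Cd9, Cd63 or Lpl. Such genes can lack a UMI in the small Apoe-rich class by sampling alone, so these shares are not of like abundance.

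The largest contrast was that of Spp1 in the plasma-positive library, with 27.2 CPM (15.8 to 43.5) in cells with 3 or more Apoe UMIs against 0.376 CPM with 0, from 17 and 3 UMIs, a ratio of 72.2 (20.9 to 385). The interval is wide because so few UMIs stand behind it. Fabp5 followed at 76.8 against 3.39 CPM, a ratio of 22.7 (13.9 to 37.8). Cst7 stood at 43.2 against 4.26 CPM, a ratio of 10.1 (5.88 to 17.3), and Itgax at 27.2 against 3.14 CPM, a ratio of 8.67 (4.39 to 16.7). Igf1 had 4 and 2 UMIs in the 2 classes and a ratio of 25.5. The more abundant members differed less: Cd63 had a ratio of 2.56 (2.34 to 2.80) and Lpl of 2.10 (1.40 to 3.07), and Cd9 did not differ beyond counting error at 1.02 (0.948 to 1.10).

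The plasma-negative library held fewer cells rich in Apoe, and its ratios rest on fewer UMIs. Cd63 was higher in cells with 3 or more Apoe UMIs by 2.18 (1.80 to 2.62), Lpl by 2.29 (1.09 to 4.29) and Cd9 by 1.37 (1.21 to 1.55). Fabp5 had 3 UMIs there and a ratio of 12.3, while Cst7 and Itgax had 2 UMIs each and intervals that included 1. Spp1 had 0 UMIs in the 146 cells, a count that allows up to 20.7 CPM by the limit of 3 counts, and up to 25.4 CPM by the exact interval. That value turned with depth: in plasma-negative cells thinned to 2000 UMIs the Spp1 ratio was 3.11, and without thinning it was 8.34.

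These ratios need the same contrast over all genes beside them, since small classes give many genes a large ratio. At 10 CPM or more in at least 1 class, 5 of 6 members were 1.5-fold or more higher in plasma-negative cells with 3 or more Apoe UMIs, beside 13.5% of 8708 genes, and 0 were lower, beside 28.6%. In plasma-positive cells, 6 of 7 members were 1.5-fold or more higher, beside 5.53% of 8478 genes, and 0 were lower, beside 18.4%. In both libraries the member short of 1.5-fold was Cd9. Spp1, Cst7, Itgax and Fabp5 reached the minimum only through the Apoe-rich class, so they had to differ.

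**Figure D3:**
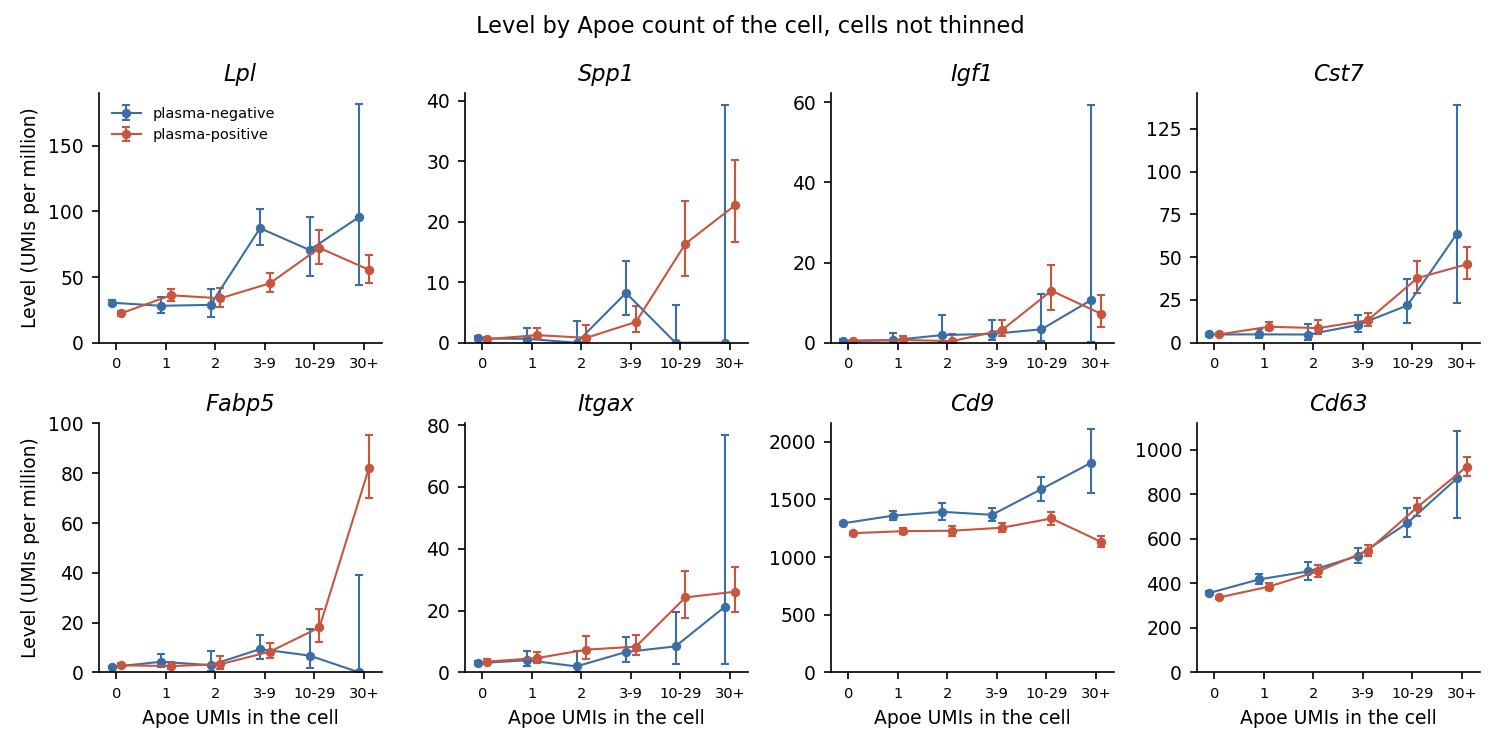
Level of 8 members (CPM, linear axes from 0) in cells grouped by their Apoe UMIs, without thinning, with the plasma-negative library in blue and the plasma-positive library in red. Bars are exact 95% Poisson intervals; the highest plasma-negative class holds 20 cells. Fabp5 in plasma-positive cells goes from 2.84 CPM at 0 Apoe UMIs to 82.1 CPM at 30 or more, Cd63 follows nearly the same line in both libraries, and Cd9 stays between 1133 and 1335 CPM in plasma-positive cells.

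Members were followed over the range of Apoe. Without thinning, the plasma-positive Fabp5 level was 2.84 CPM (2.22 to 3.58) in cells with 0 Apoe UMIs, 18.05 CPM (12.3 to 25.5) with 10 to 29, and 82.1 CPM (70.2 to 95.4) with 30 or more, so most of its contrast lay at the top. Cst7 went from 4.88 CPM (4.06 to 5.83) through 37.8 CPM (29.3 to 48.0) to 45.9 CPM (37.1 to 56.1), and Itgax from 3.48 through 24.3 to 26.1 CPM; their 2 highest classes overlapped. Spp1 went from 0.600 through 16.4 to 22.7 CPM. Lpl stood at 22.5 CPM (20.7 to 24.4) at 0, 72.2 CPM (60.2 to 85.8) at 10 to 29 and 55.5 CPM (45.8 to 66.7) at 30 or more, its 2 highest classes also overlapping. In plasma-negative cells the classes with 10 to 29 and with 30 or more Apoe UMIs held 121 and 20 cells. There Lpl stood at 70.6 CPM (50.9 to 95.4) and 95.7 CPM (43.8 to 182), Cst7 at 21.9 and 63.8 CPM, and Fabp5 at 6.72 CPM and 0 UMIs, so the order of the 2 classes was within counting error for these members. Median depth also differed along these classes, from 3564.5 UMIs per cell at 0 Apoe UMIs to 5093 at 30 or more, and its part in the levels was not tested here beyond the thinned values above.

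Seen from the members' side, 18.3% of thinned plasma-positive cells held an Apoe UMI. Among cells with a member's UMI the share was 80.0% for Spp1 (12 of 15 cells), 57.8% for Fabp5 (37 of 64), 53.0% for Cst7 (35 of 66) and 41.9% for Itgax (18 of 43). It was 30% for Lpl (24.3% to 36.2%), 24.3% for Cd63 and 18.3% for Cd9. In the plasma-negative library, where 7.87% of cells held Apoe, the share was 41.7% for Fabp5 (10 of 24) and 12.2% for Lpl, and for Cst7 and Itgax the intervals included 7.87% (5 of 38 and 6 of 34 cells). A cell with Cst7 or Itgax was thus often a cell with no Apoe UMI at this depth.

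The mix of Apoe classes differed between the libraries: cells with 0 Apoe UMIs held 80.9% of plasma-negative and 59.6% of plasma-positive UMIs. Each member's plasma-positive level was therefore recomputed with 6 Apoe classes weighted as in the plasma-negative library, without thinning and with Apoe out of the totals. The Spp1 ratio went from 2.54 to 1.07, Cst7 from 1.78 to 1.16, Igf1 from 2.17 to 1.16, Fabp5 from 2.81 to 1.29 and Itgax from 1.89 to 1.31. None of the 5 was 1.5-fold apart after that weighting. With cells thinned to 1000 UMIs and 3 Apoe classes, the weighted ratio was 0.954 for Spp1, 1.03 for Cst7 and 0.915 for Itgax, but 1.68 for Fabp5 and, with 9 Igf1 cells in each library, 0.5004 for Igf1. Spp1 had values in both libraries in 3 of the 6 classes. Cd9 moved little, from 0.927 to 0.925. Its ratio still varied with Apoe: in thinned cells it was 0.914 (0.889 to 0.939) with 0 Apoe UMIs. With 3 or more Apoe UMIs it was 0.681 (0.591 to 0.787).

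Within unthinned cells that held 0 Apoe UMIs, the scarce members did not differ between the libraries beyond counting error. The ratio was 1.01 (0.784 to 1.30) for Cst7, 1.19 (0.867 to 1.62) for Itgax, 1.34 (0.939 to 1.93) for Fabp5, 0.838 (0.399 to 1.72) for Spp1 and 0.878 (0.361 to 2.08) for Igf1. In thinned cells, where 0 Apoe UMIs is a looser condition, Fabp5 had a ratio of 2.02 with a lower bound of 1.02. Unthinned intervals that reach 1.62 or more leave room for a difference above 1.5-fold for all but Cst7. Lpl showed the reverse: its ratio in such cells was 0.737 (0.662 to 0.821), further from 1 than the 0.912 over all cells. Cd63 stood at 1.09 over all cells and, on the other side of 1, at 0.944 (0.917 to 0.972). Cells with 3 or more Apoe UMIs were compared in thinned counts. Fabp5 had a ratio of 3.71 (1.20 to 18.6) there, from 48 plasma-positive and 3 plasma-negative UMIs. With 1 to 2 Apoe UMIs its ratio was 0.141 (0.0143 to 0.739). In the cells with 3 or more, Cst7 (3.13), Itgax (1.97) and Igf1 (0.928) had intervals that included 1. Spp1 had 0 plasma-negative UMIs there and no ratio. Because dye uptake and Apoe counts were measured on the same 2 libraries, an uptake difference and a difference in the mix of cells cannot be told apart.

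**Figure D4:**
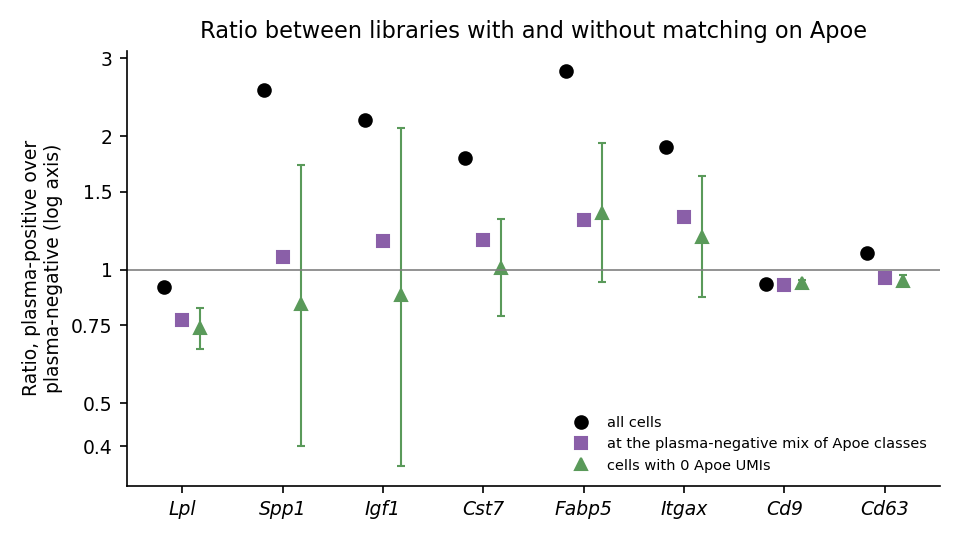
Ratio of levels, plasma-positive over plasma-negative (log axis), for 8 members: over all cells (black circles), with plasma-positive Apoe classes weighted as in the plasma-negative library (purple squares), and in cells with 0 Apoe UMIs (green triangles, exact conditional 95% intervals). The squares of Spp1, Igf1, Cst7, Fabp5 and Itgax lie between 1.07 and 1.31, and the Lpl triangle at 0.737 lies below 1 with its interval.

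Few cells held 2 or more of the scarce members, each of which was itself detected in few cells. Of Lpl, Spp1, Cst7, Itgax, Igf1, Gpnmb and Fabp5, 2 or more were detected in 53 plasma-negative cells (0.538%, interval 0.403% to 0.703%) and in 165 plasma-positive cells (1.59%, 1.36% to 1.85%). Of these cells, 32.1% and 72.7% held 3 or more Apoe UMIs. With none of the 7 genes the share was 4.43% and 10.8%. Of the 3 plasma-negative cells with 4 or more of the genes, 33.3% held 3 or more Apoe UMIs. The plasma-negative cell with Gpnmb, low in microglia markers, was among these 3. The 10 plasma-positive cells with 4 or more of the genes all held 3 or more Apoe UMIs. Their median depth was 6443 UMIs against 3660 for cells with none, so depth moved with the count. Thinned to 1000 UMIs, 7 and 21 cells held 2 or more, which is 0.0772% (0.0311% to 0.159%) and 0.215% (0.133% to 0.329%), and 0 of the 7 against 66.7% of the 21 had 3 or more Apoe UMIs.

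For single pairs of members, co-detection was set against the product of the 2 genes' shares in thinned cells, which is the number that unrelated genes would give. A product of 3 or more cells was reached by 11 pairs in the plasma-negative and 12 in the plasma-positive library, of 36 each. All of these pairs held Cd9 or Cd63, because no pair of scarcer members reached that product, so this minimum left such pairs out. The observed number was above the product in 10 and 11 of them, and its interval lay wholly above it in 2 and 3. In plasma-positive cells these were all pairs with Cd63: Spp1 (13 cells against 4.56, ratio 2.85), Fabp5 (33 against 19.5, ratio 1.70) and Cst7 (33 against 20.1, ratio 1.64). Below that minimum, Lpl and Cst7 met in 8 plasma-positive cells against a product of 1.62, a ratio of 4.93 (2.13 to 9.71), singled out after its value was seen. The ratios of Spp1 with Fabp5 (30.5, 6.29 to 89.1), Lpl with Igf1 (9.04, 1.09 to 32.6) and Cst7 with Fabp5 (6.93, 1.43 to 20.3) also lay above 1. They rest on 3, 2 and 3 cells. The other plasma-positive pairs below the minimum had intervals that included 1, or no cell with Gpnmb.

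The genes whose counts were most like each member's over cells were ranked by the mean of the 2 libraries' Pearson r on log-scaled counts, among 10149 or 10150 genes and over 9860 and 10362 cells. The 6 members with a UMI in at least 50 cells of both libraries were ranked, a minimum set after the values were seen. Apoe came first by the mean for Fabp5 (0.12), Cst7 (0.12) and Itgax (0.09), which the plasma-positive library carried: r was 0.20, 0.17 and 0.14 there and 0.04, 0.07 and 0.04 in the plasma-negative library. In plasma-negative cells alone, Apoe came first for none of these members. Genes above it there included Lyz2 (0.09) for Cst7, Cd74 (0.047) for Itgax and the interferon-induced gene Ifi204 (0.047) for Fabp5. Next came the lysozyme gene Lyz2 and Cst7 for Fabp5, Lyz2 and Cd63 for Cst7, and the receptor Axl and the class II chaperone Cd74 for Itgax. Lpl had other neighbours: the chemokines Ccl3 (0.13) and Ccl4 (0.11) and the intermediate filament gene Nes (0.10), with Apoe in place 6. Cd9 lay closest to Cst3, Tyrobp and Fcer1g (0.39, 0.37 and 0.37), and Cd63 to Ftl1, Tyrobp and Rps29 (0.26, 0.24 and 0.24). All cells of a library share its preparation, and sparse counts keep r small, so these are descriptions.

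Cells with 3 or more Lpl UMIs, 69 plasma-negative and 100 plasma-positive, were looked at for a set of genes selected after the ranking above. Ccl3 stood at 354 CPM (296 to 420) in these plasma-negative cells, against 11.5 CPM in cells with 0 Lpl UMIs. In the plasma-positive library it stood at 332 CPM against 16.3 CPM. Ccl4 stood at 281 and 847 CPM, against 14.2 and 27.6 CPM with 0 Lpl UMIs. The chemokine levels came from a minority of the cells: 24.6% of the 69 plasma-negative cells (15.1% to 36.5%) held Ccl3. Cd9 was also higher with 3 or more Lpl UMIs, at 2437 and 2053 CPM against 1288 and 1185 CPM. So were Cd63, at 1008 and 856 CPM against 371 and 400 CPM, and Cst7, at 35.1 and 106 CPM against 5.23 and 7.66 CPM. Apoe was higher there too, at 476 and 2056 CPM against 153 and 1127 CPM. The homeostatic receptor gene P2ry12 was lower, at 1989 and 1785 CPM against 2856 and 2710 CPM. These cells were deeper, with medians of 4300 and 5978 UMIs against 3234 and 3703, and the part of depth was not tested.

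The members were also compared across other response programmes in thinned plasma-positive cells. With 3 or more UMIs of 15 interferon-induced genes but 0 Apoe UMIs (325 cells), Cst7 and Fabp5 each had 1 UMI, 3.08 CPM, and Spp1, Itgax and Igf1 had 0. Cst7 differed in the plasma-negative library, where the same class (110 cells) held 4 Cst7 UMIs, 36.4 CPM, 8.01 (2.08 to 22.3) times the level in cells with none of the programmes. In cells with 3 or more Apoe UMIs and fewer than 3 interferon UMIs (491 cells), Cst7 stood at 38.7 CPM, Fabp5 at 73.3, Spp1 at 28.5 and Itgax at 24.4. With both (143 cells), the levels were 55.9 CPM for Cst7, 83.9 for Fabp5, 20.98 for Spp1 and 34.97 for Itgax. In plasma-positive cells these 4 members were therefore seen with Apoe whether or not interferon transcripts were present. Lpl was seen at 63.1 CPM with Apoe alone, from 31 UMIs, and at 6.99 CPM with both, from 1 UMI. In 363 cells with 3 or more UMIs of 10 immediate early genes, no member except Spp1, at 2 UMIs, had an interval that excluded the level in cells with none of these programmes; in 38 cells with mitotic transcripts, none did. In plasma-negative cells with immediate early transcripts (423 cells), Lpl was 2.27 (1.48 to 3.37) times the level in cells with none of the programmes.

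Fixed lists of related genes were described by the same rule, at 10 CPM or more in at least 1 library. Over all 8355 genes at that minimum the median log2 ratio was -0.04, with quartiles of -0.11 and 0.04. Most genes were thus lower by some amount, so a majority of lower genes in a list is not particular to it. Of 28 other disease-associated microglia genes, 24 were higher and 4 lower in plasma-positive microglia, with a median log2 ratio of 0.17, and 3 were 1.5-fold or more higher, beside the 0.323% of all genes: the receptor tyrosine kinase gene Axl (3.30 against 12.9 CPM), Ccl4 (20.7 against 44.1 CPM) and Lgals3bp (72.8 against 115 CPM). Axl reached the minimum through the plasma-positive library alone, so it had to differ. The lowest were Cox6a2 (-0.13), Trem2 (-0.07) and Cd68 (-0.06). Of 20 homeostatic genes, 15 were lower and 5 higher, median -0.07, from Cx3cr1 (-0.19), Mertk (-0.13) and Gpr34 (-0.12) to Olfml3 (0.07), Cst3 (0.10) and Fcrls (0.16). None of the 20 reached 1.5-fold.

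Lipid-handling genes, the setting of Lpl and Fabp5, were mixed: 13 of 19 were higher, 6 lower, and the median was 0.04. Apoe was the only one at 1.5-fold, followed by Plin3 (0.36) and Rxra (0.23), and the lowest were Acsl1 (-0.20), Lipe (-0.14) and Lmf1 (-0.12), the last a maturation factor for lipases including Lpl. Gpihbp1, which anchors Lpl on capillaries, was at 0 UMIs in both libraries. Of 11 other tetraspanins, 3 were higher and 8 lower, median -0.02, between Cd37 (-0.11) and Cd81 (0.11). Of 5 insulin-like growth factor pathway genes, 2 were higher (Igfbp4 at 0.16 and Ide at 0.12) and 3 lower (Igf1r at -0.12, Irs2 at -0.11 and Insr at -0.08). Of 19 partners of the receptors, 10 were higher and 9 lower, median 0.01, from the receptor gene Clec5a (-0.14) to the adaptor gene Tyrobp (0.17). Of 13 transcription factors of the Mitf and Tfe family and related regulators, 4 were higher and 9 lower, median -0.04, from Jun (-0.18) to Runx1 (0.03). None of the last 4 lists held a gene at 1.5-fold.

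Other cell types were measured by fixed marker lists. Cells with 2 or more markers of a lineage other than microglia numbered 182 plasma-negative and 273 plasma-positive, and held 9.51% and 4.67% of Lpl UMIs, 2.08% and 7.93% of Fabp5 UMIs, 3.63% and 5.02% of Cst7 UMIs, 3.48% and 7.20% of Itgax UMIs, and 0% and 0.877% of Spp1 UMIs. The 10 border macrophage markers summed to 4.43 CPM in the plasma-negative library, with 4 of them at 0, and to 8.36 CPM in the plasma-positive library, with 1 at 0. Cells with 2 or more of them numbered 1 and 13, and these 13 held 12 of 328 Fabp5 UMIs, 1 of 66 Igf1 UMIs and 0 of 114 Spp1 UMIs. In plasma-positive cells with a member's UMI the summed border macrophage level was 49.0 CPM for Igf1, 36.6 for Spp1, 30.9 for Fabp5, 18.3 for Itgax and 18.01 for Cst7, against about 8 CPM in cells without. For Lpl it was 9.04 against 8.29 CPM. In plasma-negative cells with a UMI the level was 0 CPM for Spp1 and Itgax, 2.71 for Fabp5 and 4.15 for Cst7. Plasma-negative cells without had 4.45, 4.49, 4.45 and 4.44 CPM, in that order. There the level was higher with a UMI for Igf1 (16.5 against 4.39 CPM, 25 cells) and Lpl (6.30 against 4.25 CPM). No intervals were computed for these sums. The part of these transcripts in the members' levels was not tested beyond leaving out such cells. Without the cells that held 2 or more markers of another lineage, the log2 ratios of Spp1, Fabp5, Igf1, Itgax and Cst7 kept their direction and stayed at 1.5-fold or more, and that of Lpl was -0.04 against -0.13 over all cells.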

How the data were processed

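Single-cell RNA was measured in 1 plasma-negative and 1 plasma-positive library. The authors deposited matrices of raw UMI counts, a value for each gene in each cell. Their headers name Cell Ranger 6.1.2, while the submitters' processing notes list version 3.0.1. The genome build and annotation are not given in the sources used here, and cell barcodes were not used here. GENCODE M21 on GRCm38 gave coordinates and gene classes.

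A cell was kept if it reached 500 UMIs and 300 genes and had no more than 10% mitochondrial UMIs, and doublets were not removed. Counts were summed per library and divided by its total (CPM). Without replicates no test was run. Sums carry exact Poisson, shares Clopper-Pearson and ratios exact conditional binomial intervals at 95% (scipy 1.17.1, numpy 2.4.6, Python 3.11.15). A called difference is a rule of size, 1.5-fold at 10 CPM or more in at least 1 library, without a pseudocount. Thinning drew 1000 UMIs per cell without replacement. The scripts were tested on simulated data.

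The members, lists and classes were chosen with earlier results of these data known. Named genes are all members and Apoe, the 3 highest and 3 lowest of each list at 10 CPM, and the 3 genes most like each member. P2ry12, Gpihbp1 and Ifi204 are named outside that rule, chosen after their values were seen. Alternatives covered depth, the mitochondrial limit, doublets scored by Scrublet (scanpy 1.11.5) and removed at the expected rate, scaling (edgeR 4.0.16 TMM factors among others), cell weighting, the CPM minimum and cells of other lineages.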

Additional observations from a re-analysis of the deposited data

How the results depend on the processing

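Of 301 values recomputed under alternatives, 239 stayed within their counting interval or within 1.5 times the count, 59 moved and 3 single-gene values turned direction. At a 10 CPM minimum the number of members 1.5-fold or more higher was 0. It was 1 with cells of at least 1000 UMIs, with the highest Scrublet scores removed, with TMM scaling, with median-of-ratios scaling and with totals without mitochondrial and ribosomal protein genes, where 4 members instead of 3 were compared, Cst7 being the added one. It was 5 at a 1 CPM minimum. The members' median log2 ratio of -0.11 was -0.14 in thinned cells, 0.0019 with cells of at least 1000 UMIs, 0.0213 without the highest Scrublet scores, 0.0460 with TMM and 0.0483 with median-of-ratios scaling, 0.0281 without mitochondrial and ribosomal genes, 0.88 at 1 CPM and 0.0075 at 50 CPM, where 2 members qualified; it was thus above 0 in all of these but the thinned cells. The 3 that turned were the log2 ratio of Igf1 in thinned cells (-0.11), and the plasma-negative Apoe ratio of Spp1 at 2000 UMIs (3.11) and without thinning (8.34) against 0 at 1000 UMIs; fewer UMIs stand behind the thinned values. Gpnmb, with 2 UMIs in each library, also moved from -0.28 to 0.11 with cells weighted equally, within its counting interval. Shares of cells with a UMI also fell in thinned cells, as they must with fewer UMIs per cell. For Cd9 in the plasma-negative library the share went from 89.0% to 68.1%. The cause of the remaining shifts was not tested. Spp1 and Fabp5 were 1.5-fold or more higher in 11 of 11 settings. The largest shift of the all-gene median by scaling was 0.04. No paired analysis was possible because there is only 1 library in a group, and for the same reason no replicate could be left out.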
